A study of Homo sapiens with 6 samples.

Results

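NF-kB is the transcription factor family that cells keep inactive in the cytoplasm by binding it to inhibitor proteins called IkB. Receptors of the TNF, interleukin-1 and ectodysplasin families switch it on by building ubiquitin chains on which the TAK1 and IKK kinases assemble, after which IKK marks the IkB protein for destruction and the dimer enters the nucleus. In keratinocytes this pathway drives cytokine, chemokine and antimicrobial genes, and downstream of the ectodysplasin receptor EDAR it acts in the making of hair follicles, teeth and sweat glands. Described here are 39 genes of that pathway, named by symbol: the DNA-binding subunits, the IkB proteins, the IKK and TAK1 kinases, the receptor-proximal adaptors, the ubiquitin ligase LUBAC, and the deubiquitinases and other negative regulators. All 39 were found in the deposited table of 20014 genes by their Ensembl identifiers, and all 39 had a mean of at least 1 FPKM (fragments per kilobase of transcript scaled to the number of mapped fragments), the minimum for being tested.

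The values came from poly(A) RNA of HaCaT, an immortalized human keratinocyte line without further treatment, in 3 libraries of STUB1 knockout cells and 3 libraries of control cells labelled WT. Per the labels, both kinds of cell received a lentiviral CRISPR vector, with a guide against STUB1 or a control guide, and sorted cells were grown as colonies that were screened for STUB1 protein. STUB1 (CHIP) is a ubiquitin ligase that works with the HSP70 and HSP90 chaperones, and the series title places it upstream of EDAR and NF-kB. The labels leave unsaid if a group's libraries share a clone or a culture. The p-values therefore cover the spread among 6 libraries alone, and that spread may be technical.

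STUB1 mRNA checked the labels, at 21.6, 24.7 and 23.2 FPKM in the knockout libraries and 37.8, 41.9 and 52.7 FPKM in the control libraries (log2 fold change -0.89, adjusted p = 0.00125 by limma and the Benjamini-Hochberg method). Between 11200 and 11292 genes reached 1 FPKM in a library, and the steps between low values gave estimated library sizes of 45600000 to 52200000 reads. Control 3 stood apart, with Pearson's r across genes of 0.988 and 0.986 to the other control libraries, where the other pairs within a group had 0.996 to 0.999. Its log2 deviation from the gene mean sloped by -0.104 per doubling of exonic length, against 0.0349 and 0.0338 in controls 1 and 2. Mitochondrial genes held 20.9% of its FPKM, 26.8% and 24.7% in controls 1 and 2, and 26.2% to 30.8% in knockout libraries. The slope per 10 points of GC content was 0.0118 to 0.135 in knockout libraries and -0.100 to -0.0369 in control libraries. Among 10 keratinocyte markers TP63 and KRT5 were well expressed, while KRT14 and KRT17 were listed at under 1 FPKM in every library. How reads that match several genes were counted is not stated, and this bears on keratins, which have near-identical copies, so those low values may not be expression levels. The keratinocyte markers summed to 1116 to 1220 FPKM in the knockout libraries, above the 963 to 1045 FPKM of the control libraries. By limma KRT5 (177% of control), COL17A1 (163%) and LAMB3 (129%) rose and PERP fell (70.6%, log2 fold change -0.49). PERP is among the 46 tested genes within 10 Mb of the member gene TNFAIP3 on chromosome 6. Of those genes 40 fell, and their median log2 fold change was -0.53. All 8 fibroblast markers were under 1 FPKM throughout, and their summed level ran from 0.447 to 0.562 FPKM in the knockout and from 0.448 to 0.535 FPKM in the control. The melanocyte sum was 6.48 to 7.66 FPKM in knockout libraries and 6.77 to 7.41 FPKM in control libraries. Nearly all of it was PMEL and MITF, and TYR was at 0 in all libraries. The leukocyte and blood sum, mostly CD68, was 22.8 to 25.6 FPKM in knockout libraries and 21.5 to 22.7 FPKM in control libraries. The endothelial sum was 1.88 to 2.01 FPKM in the knockout and 2.07 to 3.03 FPKM in the control, nearly all of it CDH5. The part of these marker differences in the results was not tested, and in bulk RNA fewer expressing cells and less RNA per cell cannot be told apart.

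Of the 39 genes, 8 rose in the knockout, 3 fell and 28 did not pass. The test was limma on log2(FPKM + 1) over all 11262 tested genes, with Benjamini-Hochberg adjustment and a threshold of 0.05, and fold changes are knockout over control on that scale. The risers were TNIP3, IKBKE, the nuclear IkB genes NFKBIZ, BCL3 and NFKBID, and the LUBAC genes RNF31, RBCK1 and SHARPIN. The genes that fell were TAB2 and MAP3K7 of the TAK1 complex and the inhibitor NFKBIE. Of the members 28.2% were called, 20.5% higher and 7.69% lower, against 22.9% of all tested genes, 9.58% higher and 13.3% lower. The median log2 fold change was 0.03 for the members and -0.01 for all tested genes. The knockout and control libraries did not overlap for 18 members (46.2%), 11 with the knockout above and 7 with it below, where 45.6% of all tested genes did not overlap, 20.4% above and 25.3% below. An exact two-sided permutation test over libraries gave 0.1 for each of those 18 members, the smallest p that 3 against 3 allows. Groups without overlap always give that value, so it adds nothing to the count. With each library rescaled to TPM (transcripts per kilobase, as shares of a fixed sum), all-gene calls were 667 higher and 1622 lower (5.92% and 14.4%, 20.3% in all) in place of 1079 and 1500, and member calls were 6 higher and 3 lower.

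**Figure D1:**
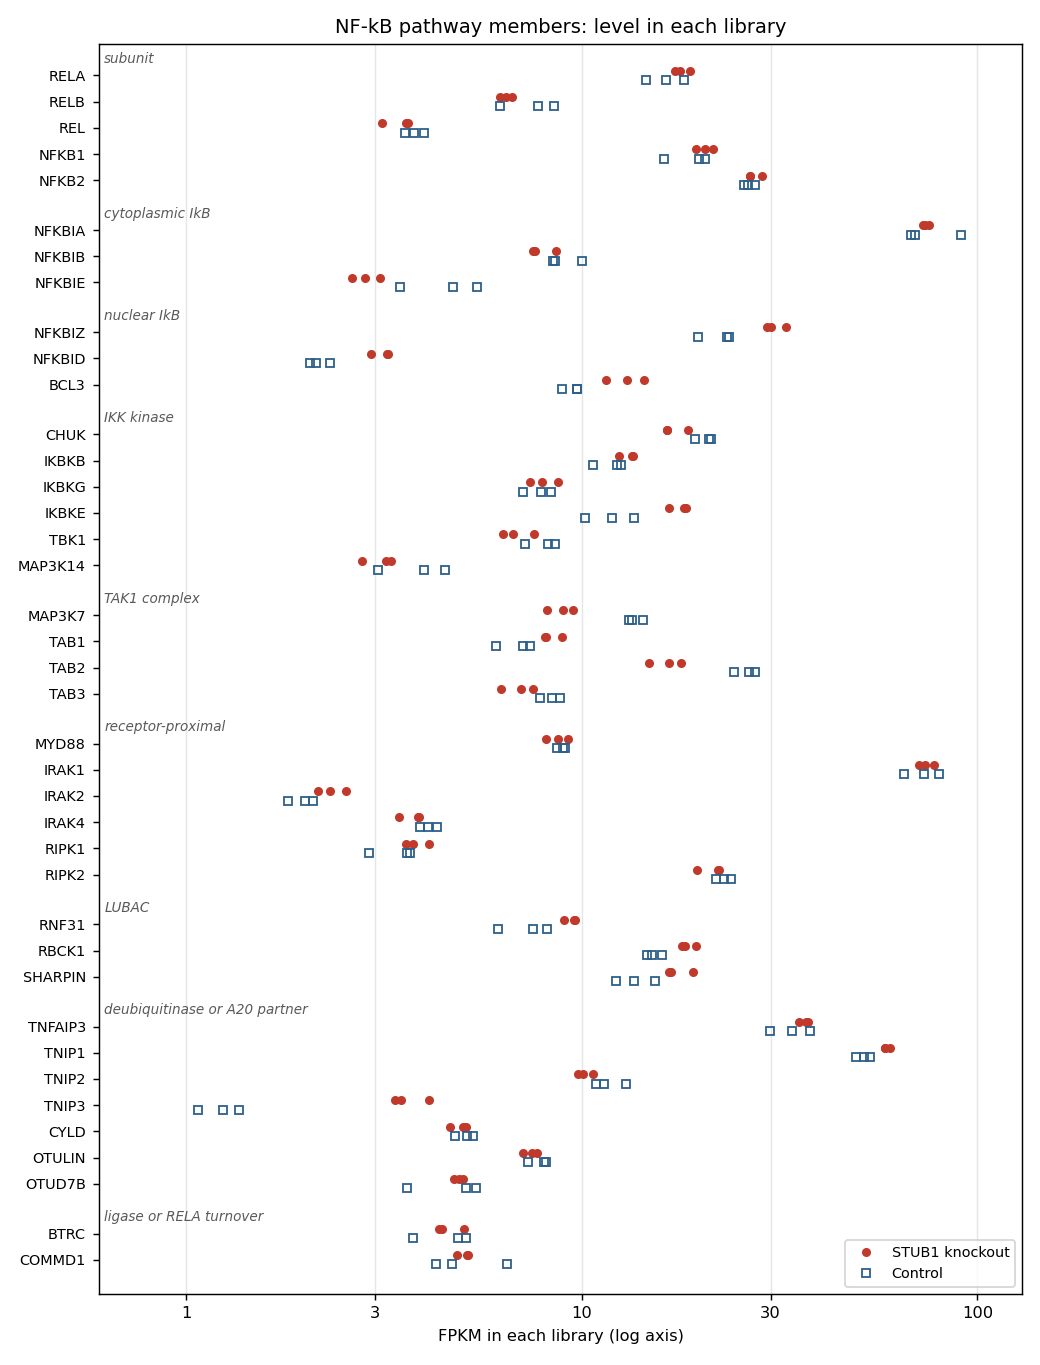
FPKM of each of the 39 members in every library on a log axis, with knockout libraries as filled circles above and control libraries as open squares below, grouped by role. The 3 knockout values of TNIP3 lie at 3.37 to 4.11 FPKM and the control values at 1.07 to 1.36, and the groups are also apart for all 3 nuclear IkB genes and all 3 LUBAC genes.

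Several of these genes hold sequences of the NF-kB binding type near their own starts, and those are shown to set beside the values. The motif searched was GGG, then any 2 bases, then TTTCC, a form of the kB site, on both strands of RefSeq promoter windows (GRCh38.p14) that run from 250 bases before to 50 bases after an annotated start. Windows were at hand for 33 of the 39 members, not for RELB, NFKBIE, IKBKB, SHARPIN, RIPK2 and BTRC, and 9 of those 33 genes (27.3%) held at least 1 match, compared with 635 of 27305 genes with a window (2.33%). Each line gives a match in capitals with its flanks on the strand of the gene, so that a match on the opposite strand reads GGAAA, 2 bases, then CCC.
NFKBIZ, chr3:101827757-101827786, plus strand: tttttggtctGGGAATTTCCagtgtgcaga
NFKBIA, chr14:35404811-35404840, minus strand: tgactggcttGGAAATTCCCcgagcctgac
NFKBIB, chr19:38899931-38899960, plus strand: gggcgtggtgGGGAATTTCCcgcagggcgg
NFKB1, chr4:102501300-102501329, plus strand: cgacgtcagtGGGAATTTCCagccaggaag
NFKB2, chr10:102394490-102394519, plus strand: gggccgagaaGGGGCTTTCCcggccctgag
NFKB2, chr10:102395674-102395703, plus strand: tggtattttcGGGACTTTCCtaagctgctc
REL, chr2:60881518-60881547, plus strand: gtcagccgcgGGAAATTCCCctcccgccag
TNFAIP3, chr6:137867182-137867211, plus strand: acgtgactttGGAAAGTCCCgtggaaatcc
TNFAIP3, chr6:137867194-137867223, plus strand: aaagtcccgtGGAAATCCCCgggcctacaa
TNIP1, chr5:151081057-151081086, minus strand: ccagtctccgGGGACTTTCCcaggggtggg
CYLD, chr16:50741887-50741916, plus strand: ttgacagagcGGAAAGTCCCttcggccggc
NFKBIZ, NFKBIA, NFKBIB, NFKB1 and REL share the same 10 letters, GGGAATTTCC. Of the 9 genes with a match 1 rose (NFKBIZ) and 8 did not pass, and a match is no evidence that the site was bound in these cells. Other forms of the kB site were not searched, so a window without a match may still hold one.

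The 5 subunits form the dimers that bind DNA, and none of them passed the test. RELB, the partner of p52 in the non-canonical pathway, had the largest absolute fold change of the 5, with 6.2, 6.64 and 6.43 FPKM in the knockout and 6.21, 7.74 and 8.50 FPKM in the control (log2 fold change -0.18, limma adjusted p = 0.222). Control 1 lay within the range of the knockout libraries, and the other two control libraries lay above it. RELA, the main activating subunit, had 17.2, 18.8 and 17.8 FPKM in the knockout and 16.3, 18.1 and 14.5 FPKM in the control (0.13, 95% interval -0.07 to 0.33). NFKB1 and NFKB2, the precursors of p50 and p52, had log2 values of 0.12 (interval -0.10 to 0.34) and 0.04 (-0.12 to 0.20), and REL, a subunit best known in lymphocytes, had -0.10 (-0.28 to 0.07). Each of these 5 intervals includes 0. The summed level of the 5 subunits was 74.8 to 76.5 FPKM in the knockout and 69.0 to 77.6 FPKM in the control, so the groups overlapped. In the knockout NFKB2 was highest (26.6 to 28.6 FPKM), followed by NFKB1 (19.4 to 21.5), RELA (17.2 to 18.8), RELB and REL, with no overlap between neighbours in that order, and in the control NFKB1 and RELA overlapped. RELB fell after a correction for GC content and transcript length (-0.32, limma adjusted p = 0.00962), and it did not pass without control 3 (-0.10, adjusted p = 0.362).

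The cytoplasmic inhibitors hold the dimers back until IKK marks them for destruction. NFKBIE (IkB-epsilon; ENSG00000146232, GRCh38 chr6:44258166-44265788) measured 2.63, 2.84 and 3.09 FPKM in the knockout and 3.48, 4.73 and 5.45 FPKM in the control. Every knockout library was below every control library, and control 1 lay nearest to them. NFKBIE fell to 62.6% of the control mean (log2 fold change -0.51, SE 0.125, limma adjusted p = 0.0195). NFKBIA (IkB-alpha), the classical inhibitor and itself a target of NF-kB, had 73.7, 72.7 and 75.6 FPKM in the knockout and 67.9, 69.7 and 90.8 FPKM in the control (-0.03, 95% interval -0.27 to 0.22). Without control 3, its highest library, the NFKBIA value was 0.10 (adjusted p = 0.138). NFKBIB (IkB-beta) had -0.17 (limma adjusted p = 0.195), with 1 of 3 knockout libraries above the lowest control library. NFKBIA supplied 86.4% to 87.9% of the summed FPKM of the 3 inhibitors in the knockout, against 84.0% to 85.5% in the control, and NFKBIE supplied 3.14% to 3.58% and 4.35% to 5.70%. The NFKBIE call was lost without knockout 1 (adjusted p = 0.0744), without knockout 2 (0.0986) and with no filter on low values (0.0555), and the value was -0.26 with array weights.

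All 3 nuclear IkB genes rose. Their proteins act inside the nucleus on p50 and p52 dimers, and they can switch target genes on as well as off. NFKBIZ (IkB-zeta; ENSG00000144802, chr3:101827991-101861022), which in keratinocytes is needed for the response to interleukin-17, had 32.9, 30.1 and 29.4 FPKM in the knockout and 23.3, 23.5 and 19.6 FPKM in the control. It rose to 139% of control (log2 fold change 0.46, SE 0.0887, limma adjusted p = 0.00724). NFKBID (ENSG00000167604, chr19:35887653-35902303), a regulator known mainly from mouse lymphocytes, had 3.21, 3.23 and 2.93 FPKM in the knockout and 2.31, 2.06 and 2.13 FPKM in the control. It rose to 144% of control (0.38, SE 0.0703, limma adjusted p = 0.00579). BCL3 (ENSG00000069399, chr19:44747705-44760044), a proto-oncogene product that binds p50 and p52 homodimers, had 11.5, 14.4 and 13 FPKM in the knockout and 9.73, 8.89 and 9.74 FPKM in the control. It rose to 137% of control (0.41, SE 0.0904, limma adjusted p = 0.0125). For each of these 3 genes the lowest knockout library lay above the highest control library. Their summed level was 47.6, 47.7 and 45.3 FPKM in the knockout and 35.4, 34.5 and 31.5 FPKM in the control, while the cytoplasmic inhibitors summed to 83.8 to 86.3 FPKM and 79.8 to 106.3 FPKM. NFKBIZ and NFKBID passed under each of 13 alternatives. BCL3 did not pass once knockout 2 (adjusted p = 0.0585) or knockout 3 (0.0547) was left out, and its value was 0.25 after the GC and length correction (adjusted p = 0.0439, and 0.0578 with the replicate block).

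Of the 7 risers with a window, NFKBIZ was the one with a match to the motif searched. Its upstream promoter window at chr3:101827740-101828039, on the plus strand, is given with the match in capitals, 223 bases before the start.
NFKBIZ promoter: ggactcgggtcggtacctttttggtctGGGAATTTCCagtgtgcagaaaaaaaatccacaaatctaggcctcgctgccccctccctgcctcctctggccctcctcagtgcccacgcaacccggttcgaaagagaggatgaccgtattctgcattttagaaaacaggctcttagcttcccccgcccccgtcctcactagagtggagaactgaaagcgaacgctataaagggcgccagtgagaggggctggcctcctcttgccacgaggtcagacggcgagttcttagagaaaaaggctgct

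Among the IKK and related kinases IKBKE alone passed. IKBKE (IKK-epsilon; ENSG00000263528, chr1:206470476-206496889) is an inducible kinase that, with its close relative TBK1, also phosphorylates interferon regulatory factors. It had 18.1, 18.4 and 16.6 FPKM in the knockout and 11.9, 13.5 and 10.2 FPKM in the control, with no overlap. It rose to 149% of control (log2 fold change 0.54, SE 0.101, limma adjusted p = 0.00608) and passed under each of 13 alternatives. Its promoter window, printed because IKBKE rose most of the kinases, held no match to the motif; it lies at chr1:206470226-206470525 on the plus strand.
IKBKE promoter: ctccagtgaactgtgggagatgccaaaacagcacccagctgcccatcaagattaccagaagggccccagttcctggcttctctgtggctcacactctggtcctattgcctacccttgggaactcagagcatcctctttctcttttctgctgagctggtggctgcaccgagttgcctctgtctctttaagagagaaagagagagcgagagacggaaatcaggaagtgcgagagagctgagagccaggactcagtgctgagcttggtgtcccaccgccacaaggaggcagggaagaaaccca

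TBK1 itself had 7.56, 6.33 and 6.71 FPKM in the knockout and 8.54, 8.21 and 7.18 FPKM in the control (log2 fold change -0.19, limma adjusted p = 0.155). The ratio of IKBKE to TBK1 was therefore 2.39, 2.90 and 2.47 in the knockout libraries and 1.4, 1.65 and 1.42 in the control libraries. CHUK (IKK-alpha), the IKK kinase of the non-canonical pathway, had 18.6, 16.4 and 16.4 FPKM in the knockout and 21.2, 21.0 and 19.3 FPKM in the control, with every knockout library below every control library. It missed the threshold (-0.25, limma adjusted p = 0.0509), passed with the replicate block (adjusted p = 0.0395), and was -0.08 after the GC and length correction (adjusted p = 0.357). IKBKB (IKK-beta), the kinase that phosphorylates IkB-alpha, had 13.5, 13.4 and 12.4 FPKM in the knockout and 12.3, 12.6 and 10.6 FPKM in the control (0.14, adjusted p = 0.252). The ratio of CHUK to IKBKB was 1.38, 1.22 and 1.33 in the knockout and 1.73, 1.67 and 1.81 in the control. These ratios were chosen after the levels were seen and are given without a test. IKBKG (NEMO), the ubiquitin-binding regulatory subunit, was at 7.38 to 8.72 FPKM and 7.11 to 8.34 FPKM (0.04, adjusted p = 0.784), although it has a near-identical pseudogene copy on chromosome X with which reads may be shared. MAP3K14 (NIK), which activates IKK-alpha, had 3.30, 3.19 and 2.78 FPKM in the knockout and 3.99, 4.5 and 3.04 FPKM in the control (-0.24, limma adjusted p = 0.162). Control 3 was the control library that overlapped the knockout, and without it MAP3K14 fell (-0.36, adjusted p = 0.00209), as it did after the GC and length correction (-0.40, adjusted p = 0.0155). TBK1 and CHUK also fell without control 3 (adjusted p = 0.0147 and 0.00341), while TBK1 was -0.04 after the correction (0.764).

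**Figure D2:**
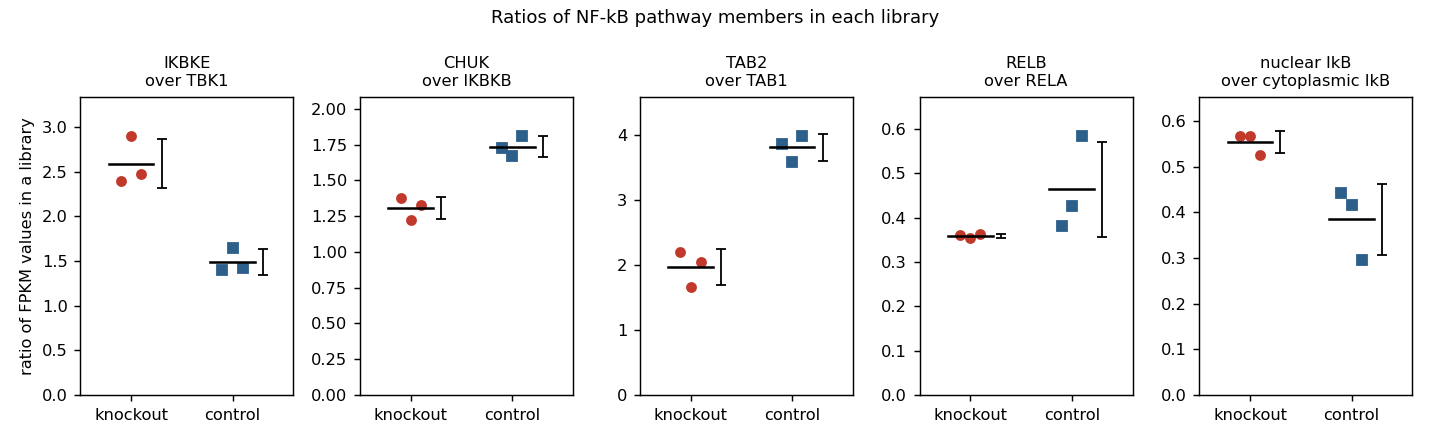
Ratios of FPKM values within each library for 5 pairs of genes or sums, with knockout left of control, points for libraries, a line for the mean and a bar for 1 SD (n = 3). IKBKE over TBK1 averaged 2.59 in the knockout and 1.49 in the control, and TAB2 over TAB1 averaged 1.97 and 3.81.

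The TAK1 complex joins ubiquitin chains to the IKK kinases, and its kinase and its most abundant adaptor fell. MAP3K7 (TAK1; ENSG00000135341, chr6:90513573-90587045), the kinase, had 9.51, 8.16 and 8.96 FPKM in the knockout and 14.3, 13.4 and 13.1 FPKM in the control. It fell to 65.2% of control (log2 fold change -0.57, SE 0.0789, limma adjusted p = 0.00162). TAB2 (ENSG00000055208, chr6:149218641-149411613), which binds the ubiquitin chains, had 17.8, 14.7 and 16.6 FPKM in the knockout and 27.4, 26.5 and 24.2 FPKM in the control. It fell to 62.8% of control (-0.64, SE 0.0870, limma adjusted p = 0.00146). Both genes passed under each of 13 alternatives, and for both the groups were far apart. TAB3, the paralog that can stand in for TAB2, had 7.54, 6.25 and 7.0 FPKM in the knockout and 8.80, 8.39 and 7.86 FPKM in the control, with no overlap (-0.24, limma adjusted p = 0.0705). TAB1, which activates the kinase directly, went the other way at 8.08, 8.88 and 8.12 FPKM in the knockout and 7.11, 7.41 and 6.07 FPKM in the control, with no overlap (0.25, adjusted p = 0.0642). TAB1 passed with the replicate block (adjusted p = 0.0448) and without control 2 (0.0474), and with the GC and length trends removed it was 0.11 (0.252, or 0.262 in the blocked fit). The ratio of TAB3 to TAB2 was 0.425, 0.424 and 0.422 in the knockout and 0.321, 0.316 and 0.325 in the control. TAB3 fell without control 3 (adjusted p = 0.00977) and after the GC and length correction (0.0265), but did not pass when the block was added to that correction (0.0562).

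Chromosome neighbours moved with these falls. Within 10 Mb on either side of MAP3K7, the 37 other tested genes had a median log2 fold change of -0.58, and 35 of them fell by limma. Around TAB2 the 50 other tested genes had a median of -0.56, and 44 fell. MAP3K7 and TAB2 stood at the 56.8 and 34.0 percentiles of their own surroundings. TNFAIP3 (A20) lies on the same arm of chromosome 6, where 46 neighbours had a median of -0.53 and 40 fell, yet its own value was 0.11, above that of every neighbour. On chromosome X all 24 neighbours of TAB3 were below 0, with a median of -0.34, and on chromosome 17 the 194 neighbours of MAP3K14 had a median of -0.28. NFKBIE, on the other arm of chromosome 6, had 115 neighbours with a median of 0.01 and stood at the 0.87 percentile. For the 8 risers the surroundings had medians between -0.11 and 0.12, and each riser lay above its own median, TNIP3 above all 35 neighbours. TNFAIP3, TAB3 and MAP3K14 were added to this description after their values were seen. The part of the surroundings in the falls of MAP3K7 and TAB2 was not tested.

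**Figure D3:**
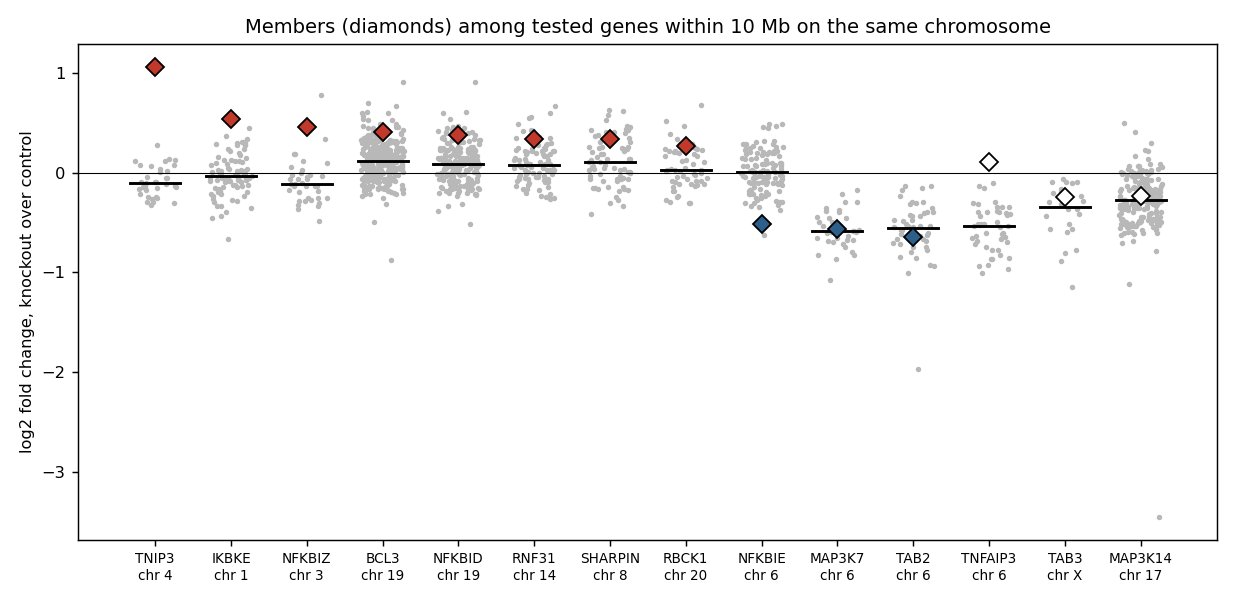
Log2 fold change, knockout over control, of 14 members as diamonds, red where higher, blue where lower and white where not passed, among the tested genes within 10 Mb on the same chromosome as grey points with their median as a line. The medians around MAP3K7, TAB2 and TNFAIP3 lie at -0.58, -0.56 and -0.53, and TNFAIP3 lies at 0.11.

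The 3 genes of LUBAC all rose. LUBAC is the only known ligase that makes linear ubiquitin chains, which hold NEMO at the receptor complex. RNF31 (HOIP; ENSG00000092098, chr14:24146683-24160661), the catalytic subunit, had 9.01, 9.58 and 9.59 FPKM in the knockout and 7.53, 8.19 and 6.13 FPKM in the control (log2 fold change 0.33, SE 0.0987, limma adjusted p = 0.0388). RBCK1 (HOIL-1; ENSG00000125826, chr20:407498-430966), a regulatory subunit, had 17.9, 19.5 and 18.2 FPKM in the knockout and 14.6, 15.0 and 16.0 FPKM in the control (0.27, SE 0.0721, limma adjusted p = 0.0275). SHARPIN (ENSG00000179526, chr8:144098633-144108124), whose loss inflames the skin of mice, had 16.8, 19.1 and 16.7 FPKM in the knockout and 12.2, 13.5 and 15.3 FPKM in the control (0.34, SE 0.0961, limma adjusted p = 0.0343). For each gene the knockout libraries lay above all control libraries, at 129%, 122% and 128% of the control mean for RNF31, RBCK1 and SHARPIN. Their summed level was 43.7, 48.2 and 44.4 FPKM in the knockout and 34.3, 36.7 and 37.4 FPKM in the control. Each of these calls was lost without any 1 of the knockout libraries and without control 1 (adjusted p between 0.0677 and 0.141), and those of RBCK1 and SHARPIN also without control 2 (0.0593 and 0.0551). After the GC and length correction the values were 0.17 for RNF31 (adjusted p = 0.157), 0.10 for RBCK1 (0.137) and 0.20 for SHARPIN (0.0169), and 34.8% of the exonic bases of RNF31 are shared with a read-through gene on the same strand.

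None of the 6 receptor-proximal genes passed. They carry the signal from interleukin-1, Toll-like and TNF receptors to the TAK1 complex. IRAK2, a kinase that sustains interleukin-1 signalling, had the largest absolute value, with 2.31, 2.53 and 2.16 FPKM in the knockout and 1.99, 2.09 and 1.81 FPKM in the control, without overlap (log2 fold change 0.17, limma adjusted p = 0.125). IRAK1 was the most abundant of the 6 at 71.4 to 77.9 FPKM in the knockout and 65.1 to 80.0 FPKM in the control (0.03, 95% interval -0.17 to 0.23). IRAK4, which phosphorylates IRAK1, had -0.11 (adjusted p = 0.290), and the shared adaptor MYD88 had -0.03 (interval -0.20 to 0.13). RIPK1, the scaffold kinase of TNF receptor 1, and RIPK2, that of the NOD receptors, had 0.13 and -0.10 (adjusted p = 0.300 and 0.359). The 6 intervals ran between -0.28 and 0.34.

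TNIP3 had the largest change of all 39 genes. TNIP3 (ABIN-3; ENSG00000050730, chr4:121131408-121227466) belongs to the small family of proteins that bind A20 and ubiquitin and restrain NF-kB signalling, and it is itself inducible. It had 3.37, 3.49 and 4.11 FPKM in the knockout and 1.07, 1.36 and 1.24 FPKM in the control. It rose 2.99-fold by the ratio of means (log2 fold change 1.07, SE 0.0852, limma adjusted p = 0.000123), and it passed under each of 13 alternatives with values from 1.0 to 1.51. Its promoter window farthest upstream, at chr4:121227434-121227733 on the minus strand, and its other 2 windows held no match to the motif. Other forms of the kB site were not searched in them, so these windows may still hold one. The window farthest upstream holds GGGGTTTCCC, which is close to the motif but no match to it. The window farthest upstream is printed because TNIP3 changed most.
TNIP3 promoter: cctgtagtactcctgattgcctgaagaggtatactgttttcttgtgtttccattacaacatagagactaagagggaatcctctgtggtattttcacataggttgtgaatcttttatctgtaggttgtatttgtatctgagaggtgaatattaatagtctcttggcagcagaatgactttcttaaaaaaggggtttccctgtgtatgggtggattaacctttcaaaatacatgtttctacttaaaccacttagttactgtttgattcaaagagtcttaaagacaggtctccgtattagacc

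The other A20 partners and the deubiquitinases did not pass. TNIP1 (ABIN-1), by far the most abundant of the family, had 58.5, 60.0 and 58.4 FPKM in the knockout and 51.8, 53.6 and 49.2 FPKM in the control, without overlap (log2 fold change 0.19, limma adjusted p = 0.0711). TNIP2 (ABIN-2) had 10.1, 10.7 and 9.77 FPKM in the knockout and 10.9, 11.3 and 12.9 FPKM in the control, also without overlap but lower (-0.18, adjusted p = 0.138). TNIP3 thus made up 4.69% to 5.69% of the summed FPKM of the 3 genes in the knockout, against 1.68% to 2.05% in the control. TNFAIP3 (A20), the ubiquitin-editing enzyme that shuts the pathway off and, like NFKBIA, is a target of it, had 36.9, 35.3 and 37.4 FPKM in the knockout and 34.0, 37.8 and 29.9 FPKM in the control (0.11, 95% interval -0.09 to 0.31). CYLD, which cuts lysine-63-linked and linear chains, and OTULIN, which cuts linear chains, had -0.04 (interval -0.20 to 0.13) and -0.06 (-0.23 to 0.10), and OTUD7B (Cezanne), a deubiquitinase of the non-canonical pathway, had 0.06 (-0.21 to 0.32). TNIP1 rose without control 3 (adjusted p = 0.0293) and was 0.03 after the GC and length correction (0.667), while TNIP2 fell after that correction (-0.27, adjusted p = 0.00526). BTRC, the ligase subunit that recognises phosphorylated IkB, had 5.04, 4.44 and 4.34 FPKM in the knockout and 4.87, 5.09 and 3.74 FPKM in the control (0.02, limma adjusted p = 0.924). COMMD1, which promotes the turnover of RELA, had 4.84 to 5.16 FPKM and 4.27 to 6.46 FPKM (-0.01, adjusted p = 0.971).

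**Figure D4:**
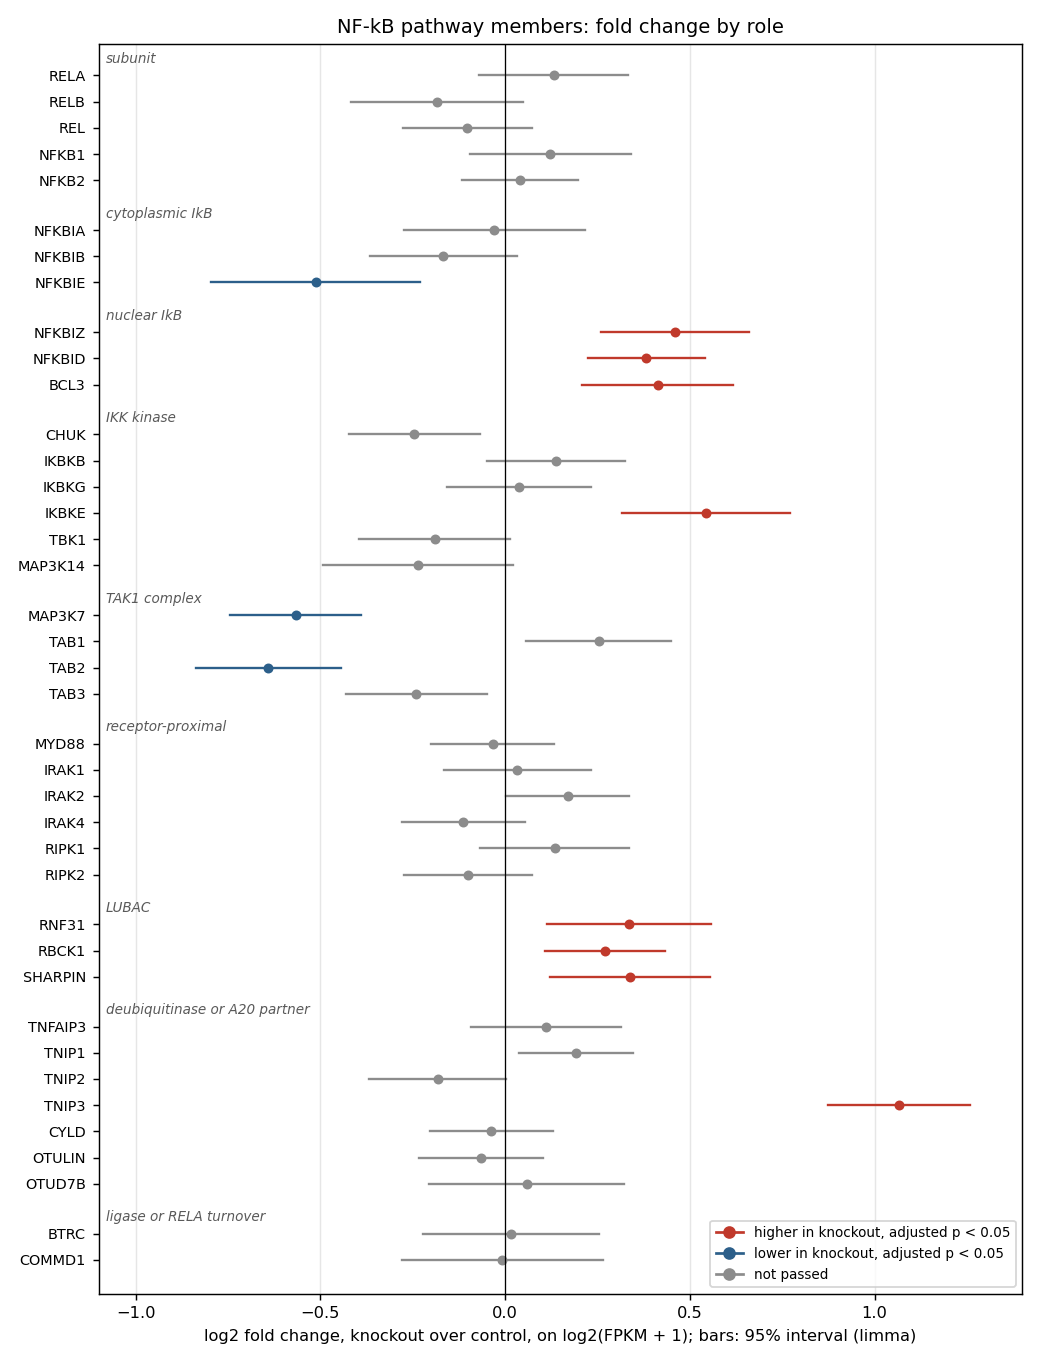
Log2 fold change, knockout over control, of the 39 members by role, with the 95% interval from limma as a bar. The 3 nuclear IkB genes lie between 0.38 and 0.46 and the 3 LUBAC genes between 0.27 and 0.34, while the 5 subunits lie between -0.18 and 0.13.

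Fold changes followed base composition across these genes, as they did across all genes. Spearman's rho between log2 fold change and GC content was 0.41 over the 39 members and 0.46 over 11177 tested genes, which share the same 6 libraries. The 8 risers had a median GC content of 62%, with NFKBIZ (46.2%) and TNIP3 (42.0%) the lowest, and the 28 that did not pass had 50.2%. MAP3K7 and TAB2 had 38.7% and 39.8%, and NFKBIE had 61.0%. With that trend and transcript length taken out of each library, 6 members were higher and 8 lower, where 11.8% of all genes were higher and 15.4% lower (27.1% in all). RNF31 and RBCK1 were no longer called, and RELB, NFKBIB, MAP3K14, TAB3 and TNIP2 were called lower, TAB3 not when the replicate block was added. Without control 3, 9 members were higher and 7 lower, where 18.7% and 21.5% of all genes were (40.1% in all), and the calls gained were TNIP1 on the higher side and CHUK, TBK1, MAP3K14 and TAB3 on the lower side. The calls of 6 members held under all 13 alternatives, with TNIP3, IKBKE, NFKBIZ and NFKBID higher and TAB2 and MAP3K7 lower.

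**Figure D5:**
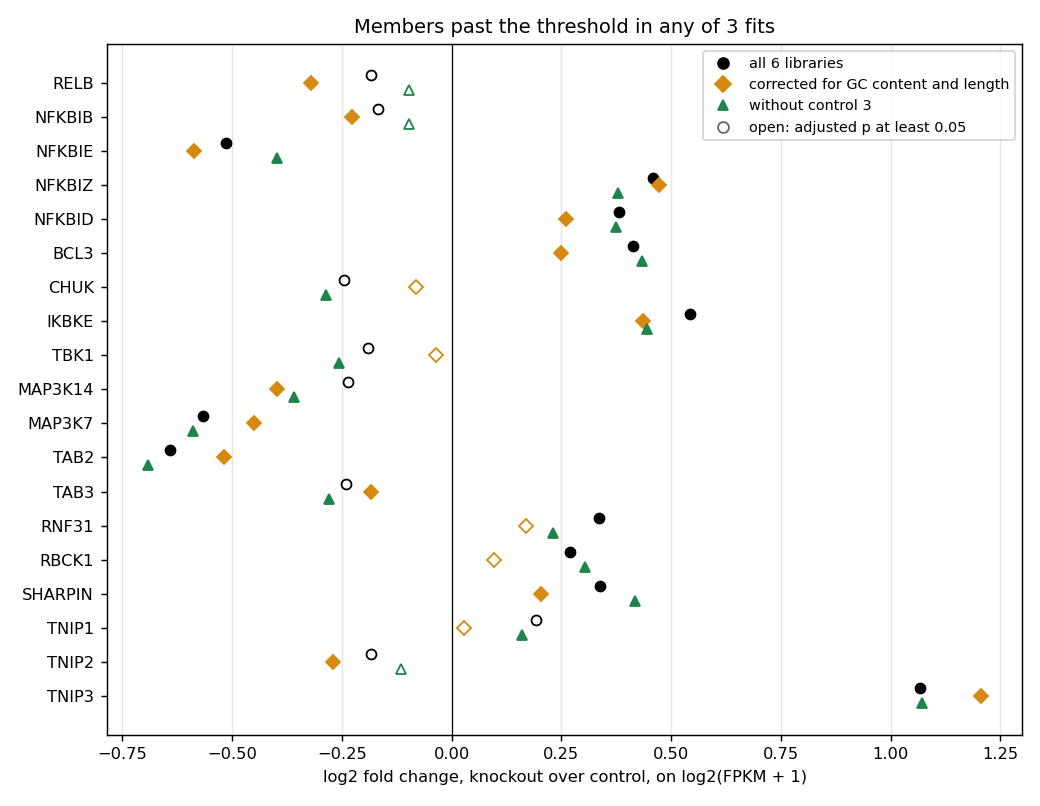
Log2 fold change, knockout over control, of the 19 members past the threshold in any of 3 fits, with all 6 libraries as circles, after the correction for GC content and length as diamonds and without control 3 as triangles, and open symbols where the adjusted p is at least 0.05. RNF31 and RBCK1 lie at 0.33 and 0.27 with all libraries and at 0.17 and 0.10 after the correction, while TNIP3 lies at 1.07 or above in each fit.

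Other genes of the pathway outside the 39 moved in both directions too. Of 36 such genes 34 were tested, of which 3 rose, 3 fell and 28 did not pass, with a median of -0.02. That is 17.6% called, below the 22.9% of all tested genes. The 2 genes under the minimum for testing were EDAR itself, at 0.19 to 0.312 FPKM over all libraries, and EDA, at 0.147 to 0.392 FPKM. PDLIM2, which promotes the destruction of nuclear RELA, rose to 224% of control, at 2.26, 2.88 and 2.86 FPKM in the knockout and 0.922, 1.17 and 1.48 FPKM in the control (log2 fold change 0.75, limma adjusted p = 0.00184). SPATA2, the bridge between CYLD and LUBAC, rose to 125% (0.26, adjusted p = 0.0342), and EDARADD, the adaptor of EDAR, rose to 139% (0.40, adjusted p = 0.0125). NKIRAS1, a small GTPase-like protein that slows the degradation of IkB-beta, fell to 67.3% (-0.52, adjusted p = 0.0147), RNF11, a partner of A20, to 80.3% (-0.30, adjusted p = 0.0377), and PELI2, a ubiquitin ligase that acts with IRAK proteins, to 51.7% at under 2 FPKM (-0.48, adjusted p = 0.00405). Without knockout 2 the calls of EDARADD (adjusted p = 0.0672) and NKIRAS1 (0.0855) were lost, and those of SPATA2 and RNF11 were lost without any 1 knockout library or control 1 (0.0819 to 0.142). RNF11 was -0.13 after the GC and length correction (adjusted p = 0.107), SPATA2 was lost as TPM (0.111), and both were lost without a filter on low values (RNF11 0.0589, SPATA2 0.0573). Of 40 common target genes 24 were tested, of which 4 rose, 3 fell and 17 did not pass, with a median of -0.03. That is 29.2% called, 16.7% higher and 12.5% lower, beside 9.58% and 13.3% of all tested genes. The 16 other targets were under the minimum for testing. Among them TNF, TRAF1, CCL5, CXCL2, CXCL5 and IL32 had every knockout library below every control library. The rest of the 16 overlapped, and none of these low values was tested in the main fit. TNFSF10, the death ligand TRAIL, was among the risers at 6.39, 5.95 and 6.97 FPKM in the knockout and 5.08, 4.58 and 4.76 FPKM in the control (0.36, limma adjusted p = 0.0137), beside LCN2, PTGS2 and TNFAIP2, while PLAU, BIRC3 and SOD2 fell. Of these 7, TNFSF10 did not pass without knockout 1 (adjusted p = 0.0502) or knockout 3 (0.0819), TNFAIP2 without any 1 knockout library or control 1 (0.104 to 0.131), and SOD2 without any 1 knockout library, control 1 or control 2 (0.0617 to 0.144). After the GC and length correction TNFAIP2 was 0.08 (adjusted p = 0.295) and SOD2 -0.24 (0.0861), and TNFAIP2 was also lost as TPM (0.109). The calls of LCN2, PTGS2, PLAU and BIRC3 held under each of 13 alternatives. LCN2 was at 179% of control (0.84, limma adjusted p = 0.000958) and PTGS2 at 149% (0.52, 0.00642). PLAU was at 61.3% (-0.70, 0.000427) and BIRC3 at 67.5% (-0.53, 0.00841).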

How the data were processed

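Gene expression was taken from the FPKM values that the authors deposited, 1 per gene and library, for 6 libraries. Per the submitters' processing notes, the tools were HISAT2 2.0.5, Trimmomatic 0.36, Cufflinks, edgeR 3.6.3 and featureCounts 1.6.3, with the build GRCh38.p13, and no roles are given. The sources used here give no annotation release and no strand setting, so a gene's reads cannot be separated from those of an opposite-strand gene that overlaps it. Opposite-strand genes share 14.7% of the exonic bases of TBK1 and 12.3% of those of MAP3K14. On the same strand, REL shares 43.3% of its exonic bases with a non-coding gene, and COMMD1 shares 31.0% with a pseudogene. FPKM holds no counts, so no count test or counting interval was computed. Library sizes were estimated from low values of genes of 300 to 2000 exonic bases, of which 64.3% to 71.3% lay within 0.15 of a whole read. Each size was chosen to bring these same values nearest to whole reads, so that share is no separate check of it.

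Gene symbols were looked up by Ensembl identifier in a name table (19991 genes) or GENCODE 29 (23 genes), and coordinates, exonic length and GC content from GENCODE 29 on GRCh38. Genes with a mean of at least 1 FPKM (11262) were tested on log2(FPKM + 1), with a pseudocount of 1, in R 4.3.3 by limma 3.58.1, fitting genotype alone with a variance trend and Benjamini-Hochberg adjustment at 0.05 over all tested genes. The scale understates changes of low genes. The script was tested on simulated data. The correction for GC content and length subtracted, per library, a spline with 5 degrees of freedom in each. Deviations from the group means correlated between same-numbered libraries at 0.375, 0.150 and 0.188, all above 0.1. The numbers may therefore pair the libraries, but differently numbered libraries were not compared and no label states a shared day. The reported fit nonetheless has no block. With the replicate block 9 members were higher and 4 lower, and the text gives blocked values where they change a call. Promoter sequences came from RefSeq (GRCh38.p14). Tables were made with pandas 2.3.3 on Python 3.11.15, correlations with scipy 1.17.1 and numpy 2.4.6, and plots with matplotlib 3.10.9.

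The members, the other gene lists and the tests were chosen with earlier results of these data known. All 39 members are named. Those past the threshold, and the member with the largest change in each other subgroup, have every library's value. Further values, the ratios and the printed promoters were chosen after the values were seen.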

Additional observations from a re-analysis of the deposited data

How the results depend on the processing

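Members called numbered 11 with all 6 libraries, 6 (without knockout 2) to 16 (without control 3) when 1 library was left out, and 21 with array weights, which gave control 3 a weight of 0.123 and called 6437 of all genes. Higher members numbered 8, 4 to 9 with 1 library left out, and 5 after the GC and length correction with the replicate block. Lower members numbered 3, 2 to 7 with 1 library left out, 10 with array weights, 8 with the correction for GC and length, and 7 when the block joined it. All genes called numbered 1030 to 4521 in place of 2579 with 1 library left out. Other pathway genes called numbered 2 to 10 in place of 6 with 1 library left out and 19 with array weights, and targets 4 to 14 in place of 7, with 11 without a filter, 14 with array weights and 11 after the GC and length correction with the block. Causes were not tested.

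With the replicate block the calls gained were CHUK and TAB1, and no member call was lost. Direction turned only for members that did not pass with all libraries. After the GC and length correction, with or without the block, it did for RELA (-0.0052), NFKB2 (-0.13), IKBKG (-0.10), IRAK1 (-0.12), RIPK2 (0.057), CYLD (0.0081), OTUD7B (-0.035) and COMMD1 (0.076). As TPM it did for NFKB2 (-0.0023), IKBKG (-0.0023), IRAK1 (-0.011) and BTRC (-0.021). With array weights it did for NFKBIA (0.12, adjusted p = 0.0276 by limma), IRAK1 (-0.041), OTUD7B (-0.073), BTRC (-0.10) and COMMD1 (0.11). With 1 library left out the log2 values ran from -0.10 to 0.10 for NFKBIA, -0.019 to 0.088 for IKBKG, -0.073 to 0.0085 for MYD88, -0.044 to 0.10 for IRAK1, -0.087 to 0.15 for OTUD7B, -0.095 to 0.085 for BTRC and -0.11 to 0.14 for COMMD1. The pseudocount of 0.1 changed no member call. NFKBIE, RNF31 and SHARPIN lost their calls without a filter, and RNF31 and RBCK1 as TPM.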
